A study of Mus musculus with 6 samples.

Results

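The ribosomal RNA gene locus of chromosome 17 (Rn45s, the 45S precursor of ribosomal RNA) was the most abundant entry in a set of tables of long non-coding RNA (lncRNA) from mouse zygotes. The members were chosen by position: all listed loci that lay wholly or partly within the Rn45s unit, an interval of 5833 bp in the mm9 build. 1 of the 3307 listed loci met this rule, XLOC_014269 (chromosome 17, 39982698 to 39985516, mm9). The tables hold neither gene names nor sequences, so its name rests on position alone. The locus was also selected on its mean RPKM over all libraries, the highest of the tables, so its rank and its level are given here as a description. Zygotes of the strain C57BL/6 had been collected while the egg and sperm genomes still formed separate pronuclei. A control group under normal gravity and a group under simulated microgravity had 3 libraries each. The titles give all libraries of a group the same prefix and name no separate cultures or animals. P-values therefore speak only of the variation among these 6 libraries, part of which may be technical. How and for how long microgravity was simulated, and whether ribosomal RNA was removed before sequencing, is unknown here.

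RNA polymerase I transcribes the tandem ribosomal DNA repeats into the 45S precursor. The precursor holds the RNA of the small ribosomal subunit, RNAs of the large subunit, and spacers that are cut away in the nucleolus. Mature ribosomal RNA is the bulk of the RNA of a cell. The mouse zygote carries ribosomes stored by the oocyte, and its own ribosomal RNA synthesis is low until the embryonic genome is activated after the first cleavage. The ribosomal RNA sequence on chromosome 17 is a copy placed in the genome assembly, and reads from the repeats elsewhere in the genome can align to it. Ribosomal RNA is not counted as lncRNA, yet gene models that overlap it can carry a lncRNA label.

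That overlap can be read from the sequences of the GENCODE annotation, release M21, which is built on GRCm38. Its coordinates were not compared with those of the mm9 tables, and whether XLOC_014269 overlaps these models was not tested. On chromosome 17 GENCODE lists a transcript of CT010467.1, of 1849 nt and typed as rRNA, on the minus strand. That type is the annotation's own, and which strand reads as ribosomal RNA was not tested. A match to the reverse complement of this transcript therefore does not make a model antisense to ribosomal RNA. It also lists lincRNA transcripts beside it. Gm42418 is a lincRNA of 1831 nt on the plus strand. Its first 1244 nt (67.9% of its length) are identical to the reverse complement of the rRNA-typed transcript. The shared run ends at the last base of that reverse complement. AY036118, a lincRNA of 923 nt on the minus strand, is identical to the rRNA-typed transcript over all of its length. The Gm26917 transcripts of 869 and 3329 nt, also typed as lincRNA, share no run longer than 13 nt with it on either strand. RefSeq, in its GRCm38.p6 table, names Rn18s-rs5 as a pseudogene on chromosome 17 and gives Gm42418 as a synonym. A further transcript of CT010467.1, of 714 nt and typed as pseudogene, matches beyond that base: bases 1178 to 1639 of Gm42418 are identical to its reverse complement over 462 nt. The letters shown are those around the last base of the reverse complement of the rRNA-typed transcript. They let the lincRNA model be seen carrying that reverse complement and passing on into the reverse complement of the pseudogene transcript. They are written 5′ to 3′. Capitals mark the bases shared with the reverse complement of the rRNA-typed transcript. The lower-case bases lie within the stretch shared with the reverse complement of the pseudogene transcript.
Gm42418, bases 1185 to 1304: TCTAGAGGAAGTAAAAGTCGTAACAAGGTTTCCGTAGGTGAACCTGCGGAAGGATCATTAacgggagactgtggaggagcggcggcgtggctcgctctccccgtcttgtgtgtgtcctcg
CT010467.1 reverse complement, bases 1790 to 1849: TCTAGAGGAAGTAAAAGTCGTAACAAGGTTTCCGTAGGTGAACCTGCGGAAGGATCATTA

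The Rn45s locus covered 2819 bp, 48.3% of the unit, starting 2756 bases after the start of the unit and ending 258 bases before its end. Its coordinates were shared with 0 other listed loci. It was short for this list, where the median span was 10591 bp, and 17.5% of the loci had a shorter span. Of the 533 other loci with spans from 2000 to 4000 bp, the highest had a mean of 5086 RPKM (reads per kilobase of transcript per 1000000 reads) and the median was 57.3 RPKM. The Rn45s locus was 7.21 times as high as the first and 641 times as high as the second.

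The place of the locus in the list set it with a small class of entries. On every chromosome the identifiers ran broadly along the coordinates from start to end and then began again. A new run was counted where the start fell back by more than 1000000 bp, which is longer than any listed locus. The first run held 1608 loci and the second 1625, with median spans of 10965 and 10980 bp. The third run, found on 19 of the 20 chromosomes, held only 74 loci (2.24%), the Rn45s locus among them. Its spans had a median of 2338 bp and a minimum of 2006 bp. Between 2000 and 4000 bp lay 68 of its 74 loci (91.9%), against 14.4% of the 3233 loci of the other runs. No source at hand says what the runs stand for, and the tables give neither strand nor exons. The other 73 loci of the run had a median of 56.4 RPKM, and the highest of them had 2987 RPKM, so the Rn45s locus stood 12.3 times above the next of its run.

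**Figure D1:**
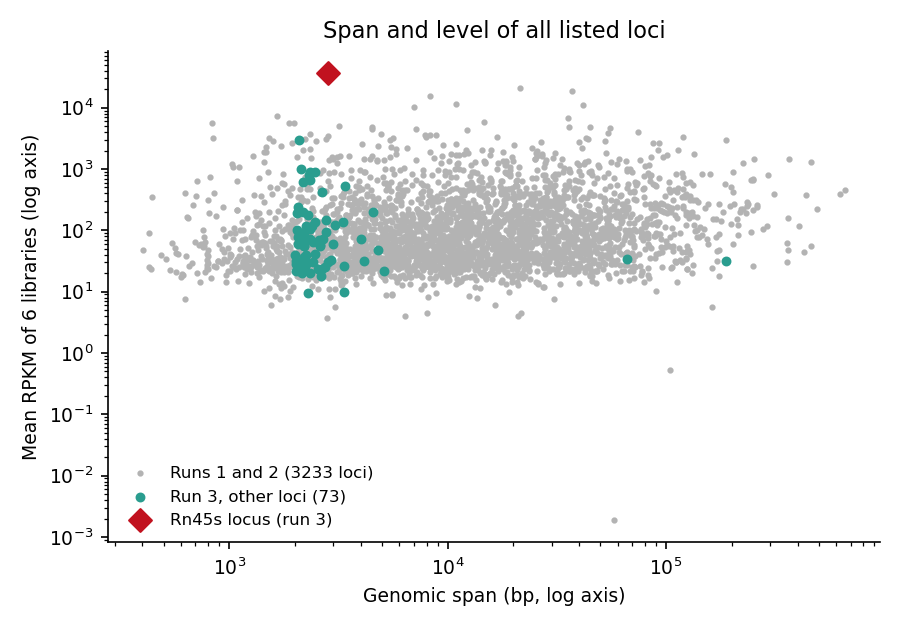
Genomic span (x axis, bp) against mean RPKM of the 6 libraries (y axis), both on log axes, for every listed locus. Grey points are the 3233 loci of the first 2 runs of identifiers, green points the 73 other loci of the third run, most of them between 2000 and 4000 bp, and the red diamond is the Rn45s locus, above all others at 36680 RPKM.

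On chromosome 17 the third run held 4 further loci, which were far lower. XLOC_014248 (36072218 to 36074381) had a mean of 617 RPKM, and XLOC_014338 (59204467 to 59206617) and XLOC_014345 (62820471 to 62823463) had 58.9 RPKM each. XLOC_014481 (92076615 to 92078881) had 28.8 RPKM. The Rn45s locus also stood alone along the chromosome. The nearest listed loci before it ended 1177130 and 1642567 bp away (XLOC_013770, mean 168 RPKM, and XLOC_013769, mean 38.2 RPKM). The nearest after it began 607374 and 1220181 bp away (XLOC_013774, mean 178 RPKM, and XLOC_013319, mean 90.1 RPKM, whose coordinates are shared with 1 other locus). None of the 4 neighbours came near the level of the Rn45s locus.

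The level of the Rn45s locus was 33657, 37673 and 27835 RPKM in control replicates 1, 2 and 3. It was 34465, 53489 and 32964 RPKM in microgravity replicates 1, 2 and 3. The groups overlapped: microgravity replicates 1 and 3 lay inside the range of the control libraries, and microgravity replicate 2 stood above all others. That library was 1.61 times as high as the mean of the other 5 (33319 RPKM) and 1.42 times as high as the next, control replicate 2. Among the other 5 libraries the highest was 1.35 times the lowest. Control libraries averaged 33055 ± 4946 RPKM and microgravity libraries 40306 ± 11441 RPKM (SD, n = 3 each).

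No difference between the groups was detected. The log2 difference on log2(RPKM + 1), microgravity minus control, was 0.26 ± 0.16 (SE; limma, adjusted p = 0.685), with a 95% interval from -0.10 to 0.62. The unadjusted p was 0.14 in limma with a mean-variance trend and robust moderation. It was 0.36 in limma without both, where the interval ran from -0.38 to 0.91. With the replicate number as a block the unadjusted limma p was 0.015 and the interval ran from 0.065 to 0.46 (adjusted p = 0.623), but the numbers were not found to pair the libraries. Without microgravity replicate 2 the log2 difference was 0.039 (limma, adjusted p = 0.958), and the microgravity mean of 33714 RPKM lay 659 RPKM above that of control. Of the 3301 loci tested, 0 (0%) were called at an adjusted p under 0.05 by limma, and 261 (7.91%) had an unadjusted p under 0.05, a group to which the Rn45s locus did not belong in this fit without a block. The groups did not overlap at 450 loci (13.6%), and the Rn45s locus was not one of them either. Of the 3300 other tested loci, 51.5% had a larger log2 difference in either direction. Among the 49 other loci of the 50 most abundant, 6 did.

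The share of the locus in a library was again highest in microgravity replicate 2. The locus took 3.73%, 4.22% and 3.09% of the summed RPKM in control replicates 1 to 3, and 3.71%, 5.99% and 3.63% in microgravity replicates 1 to 3. Only microgravity replicate 2 lay outside the control range. The control mean was 3.68% ± 0.569 (SD, n = 3). The microgravity mean, 4.44% ± 1.34 (SD, n = 3), was 0.767 percentage points higher (p = 0.6, two-sided exact permutation test, which cannot give less than 0.1 here). Without microgravity replicate 2 the difference was -0.00602 percentage points.

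Summed RPKM does not weigh a locus by its length, so a share of reads was worked out as well. RPKM times length in kilobases, divided by 1000000, is the share of the reads to which values were scaled. The length that the authors used is not given, so the span of 2819 bp was taken, which gives an upper limit if the length used did not exceed the span. The limit was 9.49%, 10.6% and 7.85% of reads in control replicates 1 to 3 and 9.72%, 15.1% and 9.29% in microgravity replicates 1 to 3. The means were 9.32% ± 1.39 (SD, n = 3) and 11.4% ± 3.23 (SD, n = 3). Spans cannot have been the lengths used for the list as a whole: over all loci the same product summed to between 2533% and 2707% per library, and a share cannot pass 100%.

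**Figure D2:**
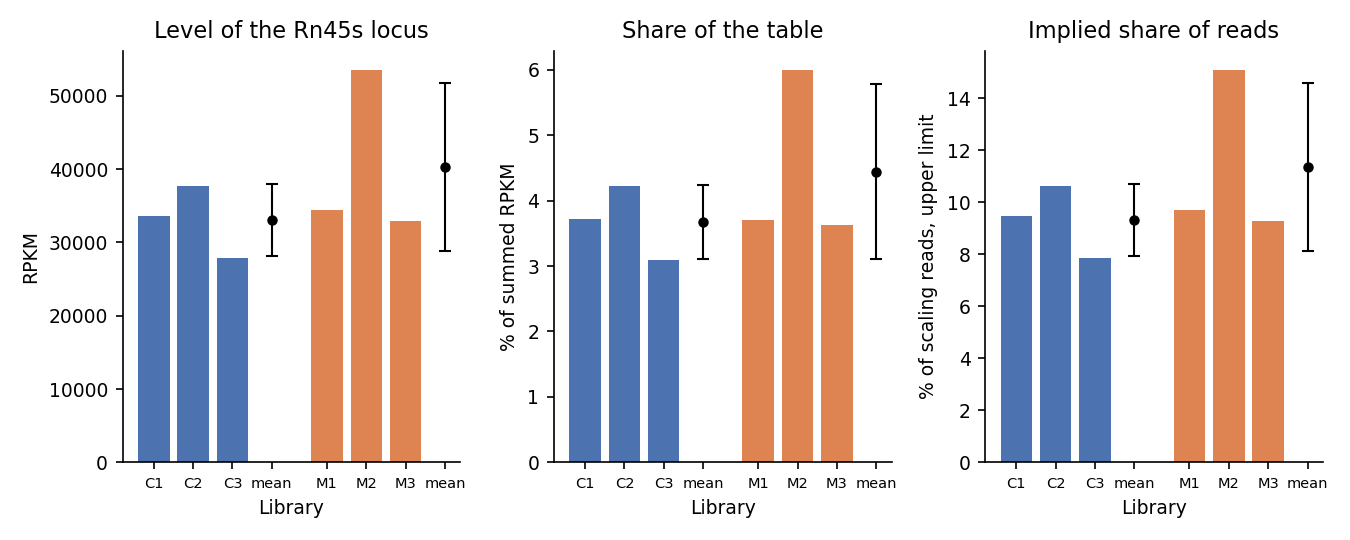
The Rn45s locus in control (C1 to C3, blue) and microgravity (M1 to M3, orange) libraries: RPKM, percent of the summed RPKM, and the upper limit of its percent of the scaling reads. Bars are single libraries and start at 0, and points with bars beside them are the mean and SD of the 3 libraries of a group. M2 is the highest in each panel, at 53489 RPKM, and M1 and M3 lie within the control range.

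The Rn45s locus ranked first in all 6 libraries, by a margin that varied. It was 1.55, 1.82 and 1.22 times as high as the next locus in control replicates 1 to 3, and 1.72, 2.90 and 1.39 times in microgravity replicates 1 to 3. The next locus was XLOC_027631 (chromosome 7, 54222161 to 54243580, coordinates shared with 1 other locus) in 5 libraries. In microgravity replicate 1 it was XLOC_025258 (chromosome 6, 89125622 to 89162622). Both these loci were lowest in microgravity replicate 2, at 18458 and 16715 RPKM, the library in which the Rn45s locus was highest. XLOC_025526 (chromosome 6, 10921481 to 10929750, coordinates shared with 1 other locus) also had its lowest value there, 14732 RPKM. XLOC_000947 (chromosome 1, 64726494 to 64737441) and XLOC_013884 (chromosome 17, 64863619 to 64905080) did not, with 11742 and 12269 RPKM. Against its own median locus each library showed the Rn45s locus between 382 times (control replicate 3) and 748 times (microgravity replicate 2) higher.

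For an abundant locus the Rn45s locus varied much between libraries. Its SD of log2(RPKM + 1) was 0.22 in control and 0.39 in microgravity. The 49 other loci of the 50 most abundant had a median SD of 0.088 in control and 0.14 in microgravity, and a larger SD than the Rn45s locus was found for 4 of them in control and for 1 in microgravity. That one was XLOC_025706 (chromosome 6, 71249974 to 71252800), with an SD of 0.50 in microgravity. Beside the whole table the spread was not unusual, since 67.3% of the other tested loci had a larger SD in control and 45.8% in microgravity, all of them at lower levels since Rn45s ranked first. The spread in microgravity came from replicate 2: the other 2 libraries of that group had an SD of 0.045.

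**Figure D3:**
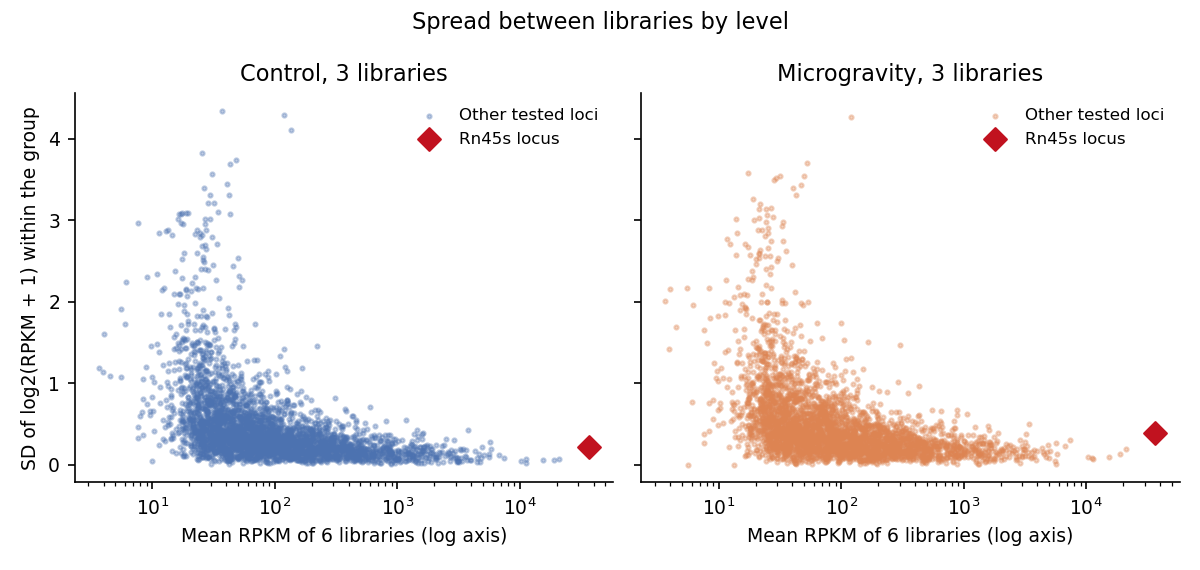
SD of log2(RPKM + 1) within each group of 3 libraries (y axis) against mean RPKM of the 6 libraries (x axis, log axis) for the 3301 tested loci. The red diamond is the Rn45s locus, at the far right with an SD of 0.22 in control and 0.39 in microgravity, above most other abundant loci.

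RPKM is relative to the reads used for scaling, so reads of the Rn45s locus lower all other values if they are among those reads. Whether they are is unknown here. The summed RPKM of all other loci was 869675, 854909 and 874336 in control replicates 1 to 3, and 894515, 839270 and 874482 in microgravity replicates 1 to 3. The libraries with the highest Rn45s values, microgravity replicate 2 and control replicate 2, had the lowest sums of the rest. The remaining libraries did not follow this order. Microgravity replicate 1, the next highest in Rn45s, had the highest sum of the rest, and control replicate 3, the lowest in Rn45s, did not. In microgravity replicate 2 that sum was 3.93% below the mean of the other 5 libraries. By the upper limit above, the reads left for other loci there were 84.9%, against a mean of 90.6% in the other 5. The median log2 deviation of the other tested loci from their own mean over 6 libraries was -0.030 in microgravity replicate 2 and -0.0074 in control replicate 2. It was between 0.025 and 0.068 in the remaining 4 libraries. What part the Rn45s locus had in these deviations was not tested beyond the scalings that follow.

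Taking the locus out of the scaling moved the other loci by little, and the direction of the move depended on how it was done. When each library was divided by 1 minus the share of summed RPKM held by the Rn45s locus, the log2 differences of the other 3300 tested loci moved up by a median of 0.012. When it was divided by 1 minus the upper limit of the read share, they moved up by 0.033. The factor of the division by share averaged 1.038 in control and 1.047 in microgravity, but 1.038 in microgravity without replicate 2. For the division by read share these means were 1.103, 1.129 and 1.105. The group difference in the factors thus lay mainly with microgravity replicate 2. When all libraries were set to the same sum of all loci other than Rn45s, the median move was -0.0047, because this also levels the totals of the libraries. Setting the libraries to the same sum with the Rn45s locus kept in gave a median move of -0.016. The 2 scalings to equal sums thus differed by the contribution of the Rn45s locus alone. Microgravity replicate 2 was brought from a median deviation of -0.030 to -0.0008 by the division by share and to 0.048 by the division by read share. With the latter it lay above the control libraries, which were between -0.0043 and 0.011.

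Few loci changed direction. Of the 3300 other loci, 27 (0.818%) changed the sign of their log2 difference after division by the share of summed RPKM, 102 (3.09%) after division by the read share, and 12 (0.364%) after scaling to equal sums of the other loci. None of these loci had a log2 difference larger than 0.033 in either direction before. The median log2 difference of the other loci was -0.0040 as deposited, 0.0075 after division by share, 0.029 after division by read share and -0.0086 with equal sums of the other loci.

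The balance of small p-values moved more than their number. At an unadjusted p under 0.05, 159 loci (4.82%) were higher and 102 (3.09%) lower in microgravity as deposited (limma). Division by the share of summed RPKM gave 169 (5.12%) and 100 (3.03%), division by read share 193 (5.85%) and 84 (2.54%), and equal sums of the other loci 158 (4.79%) and 116 (3.51%). With libraries set to equal medians the split was 139 higher and 134 lower. The loci higher in microgravity were 60.9% of those with small p as deposited and 69.7% after division by read share. They were 50.9% with equal medians. The factors of both divisions differed between the groups mainly through microgravity replicate 2. Counts after division were not repeated without that library. After adjustment limma called 0 loci under every one of these scalings, while 269 (8.15%), 277 (8.39%) and 274 loci (8.3%) had an unadjusted p under 0.05 in the order of the scalings without Rn45s above, against 261. The log2 difference of the Rn45s locus itself was between 0.26 and 0.29 under these 3 scalings.

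**Figure D4:**
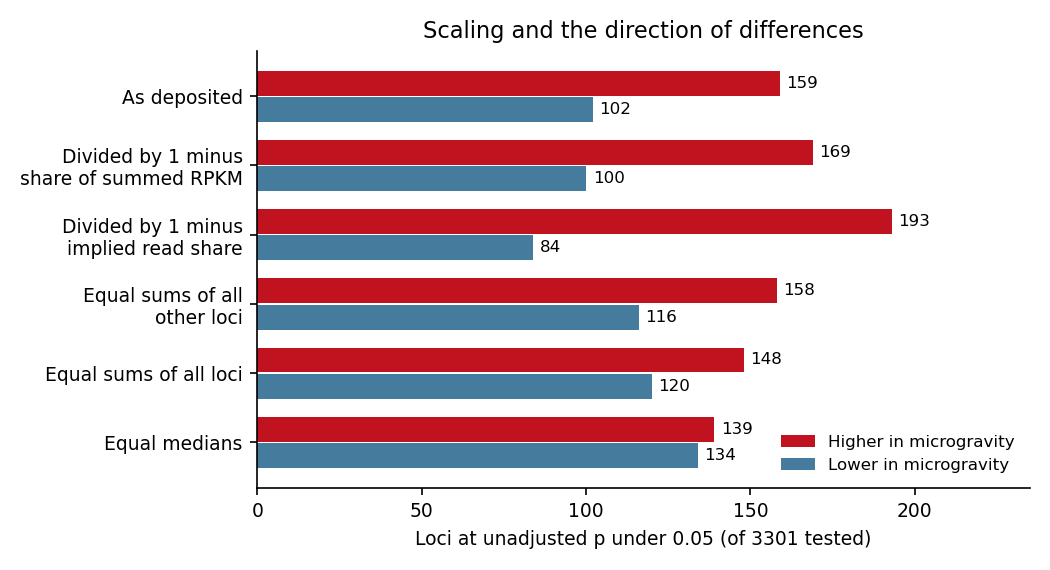
Number of the 3301 tested loci at an unadjusted limma p under 0.05 (x axis) that were higher (red) or lower (blue) in microgravity, as deposited and under 5 scalings (y axis). Division by 1 minus the read share of the Rn45s locus gives 193 higher and 84 lower, and equal medians give 139 and 134. The read-share factor is largest in microgravity replicate 2, at 1.18.

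Scaling to equal sums of the other loci took 5 loci from below an unadjusted p of 0.05 to above it and brought 18 below it, while 256 stayed below. With Rn45s kept in the equal sums, 11 loci left, all higher in microgravity, and 18 came in, all lower. The divisions went the other way. By share 2 loci left and by read share 18, all lower, and 10 and 34 came in, all higher. The 5 that left with equal sums of the other loci all had higher values in microgravity and lay close to the threshold. The same 5 left with Rn45s kept in the equal sums (limma, unadjusted p = 0.051 to 0.058, adjusted p = 0.606 to 0.622). Their crossing was thus not particular to leaving Rn45s out. They were XLOC_014248 on chromosome 17 (36072218 to 36074381), which is in the third run as Rn45s is, XLOC_028861 on chromosome 8, XLOC_020733 on chromosome 4, XLOC_002621 on chromosome 10 and XLOC_000482 on chromosome 1. XLOC_014248 had 567, 489 and 455 RPKM in control replicates 1 to 3 and 510, 693 and 988 RPKM in microgravity replicates 1 to 3, so the groups overlapped. Its p went from 0.049 to 0.053 (limma, adjusted p = 0.625 and 0.604), with a log2 difference of 0.49 and 0.48. After division by read share its p was 0.036 (limma, adjusted p = 0.578).

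The 5 most abundant of the 18 that came in with equal sums of the other loci were mostly lower in microgravity. XLOC_002523 on chromosome 10 (43933921 to 43939352) had 3373, 3033 and 3292 RPKM in control replicates 1 to 3 and 3103, 2266 and 2849 RPKM in microgravity replicates 1 to 3. Its log2 difference was -0.25 before and after, with an unadjusted limma p of 0.077 as deposited and 0.048 when rescaled (adjusted p = 0.627 and 0.598). After division by read share its p was 0.087 (limma, adjusted p = 0.632). XLOC_027575 on chromosome 7 (50518654 to 50520998) averaged 2298 ± 35.8 RPKM under normal gravity and 1960 ± 92.0 RPKM in microgravity (SD, n = 3 each), and its groups did not overlap. XLOC_016111 on chromosome 19 and XLOC_004518 on chromosome 11 (71359954 to 71366784) were lower as well, with log2 differences as deposited of -0.44 and -0.33. XLOC_005503 on chromosome 11 (111455061 to 111539581) was higher, at 688 RPKM in control and 869 RPKM in microgravity. XLOC_016111 and XLOC_005503 each share their coordinates with 1 other listed locus. With Rn45s kept in the equal sums, XLOC_002523, XLOC_027575, XLOC_016111 and XLOC_004518 came in as well (limma, unadjusted p = 0.034 to 0.048, adjusted p = 0.594 to 0.606). XLOC_005503 did not (limma, unadjusted p = 0.061, adjusted p = 0.622). For these 10 loci the move of the log2 difference was within 0.005. The SE moved as well: it rose at the 5 named loci that left and fell at the 5 that came in. At XLOC_002523 it went from 0.128 to 0.115.

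Loci whose values ran most like those of the Rn45s locus, by Pearson's r of log2(RPKM + 1) over the 6 libraries, were all of modest level. These values describe 6 libraries that share their scaling, and the extremes of 3300 loci over 6 points are wide by selection. The highest r belonged to XLOC_000282 (chromosome 1, 75671683 to 75962079; r = 0.97). It had 99.3, 126 and 83.6 RPKM in control replicates 1 to 3 and 115, 174 and 114 RPKM in microgravity replicates 1 to 3, with the same highest and lowest libraries as Rn45s. It was followed by XLOC_009371 on chromosome 14 (r = 0.97), XLOC_016951 on chromosome 2 (r = 0.96), XLOC_031025 on chromosome 9 (r = 0.96) and XLOC_025055 on chromosome 6 (r = 0.95). All 5 were highest in microgravity replicate 2. Without that library r was 0.93, 0.86, 0.98, 0.87 and 0.69 in the same order.

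The lowest r belonged to XLOC_002598 (chromosome 10, 69806758 to 69827337; r = -0.99), with 16.7, 7.62 and 83.9 RPKM in control replicates 1 to 3. In microgravity replicates 1 and 3 it had 22.4 and 29.7 RPKM, and it was listed at 0 in replicate 2. XLOC_011052 on chromosome 15 (r = -0.99), XLOC_014926 on chromosome 18 (r = -0.98), XLOC_008385 on chromosome 13 (r = -0.98) and XLOC_007804 on chromosome 13 (r = -0.97) followed, each lowest in microgravity replicate 2 and highest in control replicate 3. XLOC_007804 was also listed at 0 in microgravity replicate 2. Without that library r was -0.97, -0.96, -0.95, -0.91 and -0.85. Over all 3300 other tested loci the median r was -0.059, and 46.5% of the values were positive. After division by 1 minus the share of summed RPKM the median r was -0.0076 with 49.5% positive, and after division by 1 minus the read share it was 0.061 with 54.5% positive. For these values of r the Rn45s locus itself was left as deposited. Each factor grows with the share of the Rn45s locus in that library, so the divisions raise r by construction. The turn in the balance of positive and negative r therefore says nothing further about the other loci. The 10 loci named here, picked for extreme r, kept r within 0.02 of the value as deposited under both.

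**Figure D5:**
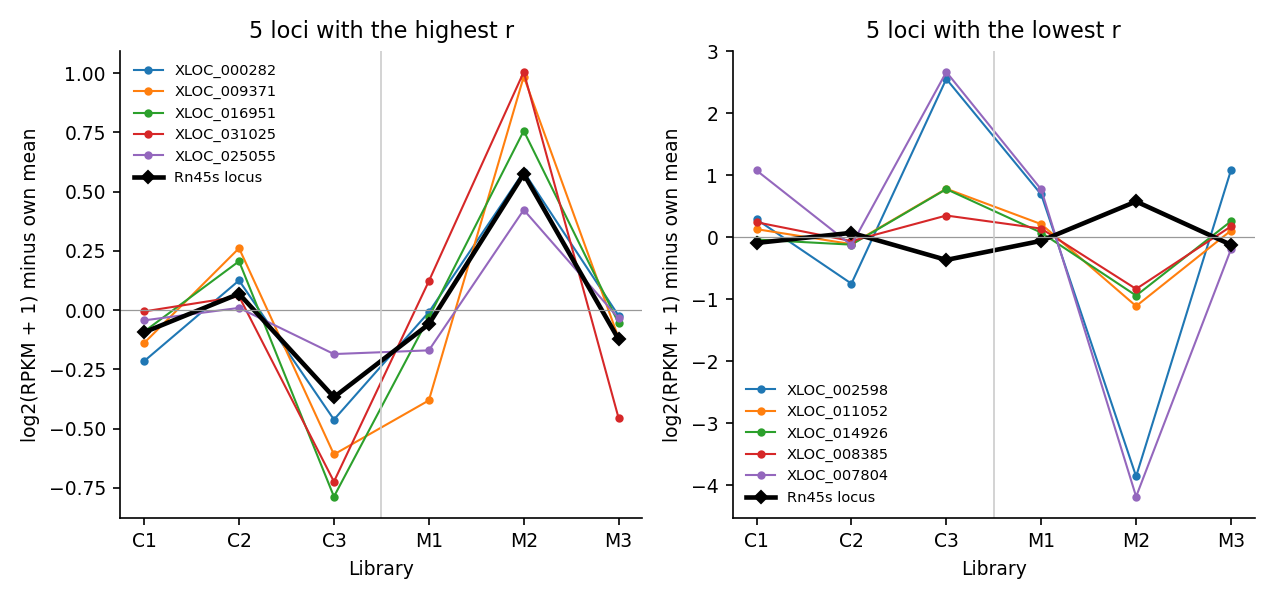
log2(RPKM + 1) minus the mean over the 6 libraries (y axis) in control (C1 to C3) and microgravity (M1 to M3) libraries (x axis), for the Rn45s locus (black) and the 5 loci with the highest (left) and lowest (right) Pearson's r with it. The y axes of the panels differ. The loci on the left peak in M2 and those on the right are lowest there, 2 of them listed at 0.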

How the data were processed

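RNA of mouse zygotes was measured in 6 libraries, 3 control and 3 simulated microgravity, grouped by their titles. Per the file headers, the authors deposited RPKM values, 1 per lncRNA locus and library, with an identifier and coordinates. Coordinates are in mm9, as the submitters' processing notes state. For the aligner, assembler, counting, strand and the reads used for scaling, no source at hand gives any. Therefore the depth is unknown and no counting interval is given. No value above 0 was equal in any pair of libraries at the same locus. The members and lists were chosen with earlier results of these data known.

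Groups were compared with limma 3.58.1 (R 4.3.3), using robust moderation and a mean-variance trend, on log2(RPKM + 1). A locus entered if 3 or more libraries had 1 RPKM or more. Tests were two-sided, with Benjamini-Hochberg adjustment and a threshold of 0.05. A fold change on this scale understates that of low loci. The model was tested on simulated independent libraries whose planted changes were all larger than the difference seen at the Rn45s locus. That test cannot say whether a difference of this size would be detected. Shares were compared by exact permutation. Named were the 5 next most abundant loci, the 2 nearest on each side, the 5 highest and 5 lowest r, and up to 5 loci crossing the unadjusted limma threshold in each direction on rescaling to equal sums of the other loci. The tables hold no gene names, so 0 of 18 ribosomal and nucleolar RNA symbols and 0 of 11 cumulus, sperm and blood marker symbols could be matched, and other cell types were not examined. Figures were drawn with matplotlib 3.10.9.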

Additional observations from a re-analysis of the deposited data

How the results depend on the processing

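The division by share, the scaling to equal sums of all loci, the runs of identifiers and the leave-one-out values of r and SD were chosen after seeing the data. The log2 difference of the Rn45s locus was 0.039 to 0.39 without single libraries and missed the limma threshold in every fit (adjusted p = 0.564 to 1). It was 0 with quantile normalization, which gives the top locus of each library the same value by construction. The difference in its share was -0.00602 to 1.17 percentage points without single libraries, negative only without microgravity replicate 2, and 0.0747 to 0.864 with other denominators. Called loci were 0 to 1 without single libraries, the 1 without control replicate 1, and 0 in the other alternatives. Loci at unadjusted p under 0.05 were 190 to 309 and 243 to 277. Those lower in microgravity, 102 as deposited, came to 64 to 158 without single libraries, the lowest without control replicate 2 and the highest without microgravity replicate 1. Non-overlapping groups numbered 747 to 882 without single libraries, since 2 values against 3 overlap less often, and 449 to 475 otherwise. The median log2 difference of the other loci was -0.015 to 0.025 without single libraries, 0.029 after division by read share and -0.035 with equal medians. The 10 crossing loci kept their direction in every fit. The SD in microgravity was 0.045 to 0.49 without single libraries, and the third run held 74 loci under both other limits. With the replicate number as a block the log2 difference of Rn45s was 0.26 (SE 0.086; limma, unadjusted p = 0.015, adjusted p = 0.623), which put it among the loci at unadjusted p under 0.05, with 0 calls, and 255 loci had an unadjusted p under 0.05. Deviations of libraries with the same number correlated at 0.017, -0.0037 and -0.017, and the numbers were therefore not used to pair libraries. Reads per library are unknown, which limits every statement on counting error.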
